A study of Clarias macrocephalus with 14 samples.

Results

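Transcript counts of Clarias macrocephalus, the broadhead catfish, were compared in whole fry between 13 days post fertilization (dpf) and 5 dpf, the widest gap in age between consecutive samplings of the series. Each age had 2 libraries, and the series holds 14 libraries at 7 ages, from 3 to 24 dpf. The fry carried no treatment or genotype in the labels, their sex was given as unknown, and the labels do not say whether a library came from 1 fry, a pool or a separate spawn. The p-values thus cover only how far these samples differ, possibly for technical reasons. In whole bodies, fewer cells of a type and less RNA per cell cannot be told apart. Counts of assembled transcripts were summed per Gene ID, for the Gene IDs written in digits alone. Before summing, 2 sets of transcripts were left out. One had at least 20 counts over the libraries of 5 dpf, and the other had at least 20 at 13 dpf and again at 14 dpf, each with fewer than 3 counts at every other age. This left 23773 Gene IDs of the 25238 in the series, and 18445 of them had enough counts to be tested.

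In its early weeks a catfish larva passes from life on yolk to feeding in the water, while its muscle, gut, skeleton and gills grow and differentiate. Clarias catfishes breathe air with an accessory organ above the gills that forms from the gill arches, and the series was made in a search for genes linked to air breathing. The Gene IDs come without gene names, so the lists of genes by tissue or pathway could not be applied, and results are given by Gene ID, by size and level of change, and by the behaviour of the transcripts within a Gene ID.

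Leaving out transcripts shaped what was compared. The set seen at 5 dpf alone held 7936 transcripts, 7641 of them under all-digit Gene IDs, and took 7.4% and 9.4% of all counts in replicates 1 and 2 of 5 dpf. The set seen at 13 and 14 dpf alone held 805 transcripts and took 0.311% and 2.32% of the counts in replicates 1 and 2 of 13 dpf. At the edges of the rule, 503 of the transcripts left out had under 22 counts at 5 dpf, while 563 with 18 or more but under 20 were kept. A further 102 transcripts with 20 or more counts at 5 dpf were kept because another age held 3 counts or more, but under 4. Of the 23837 all-digit Gene IDs, 64 lost every transcript, and 4504 lost at least 1 and kept at least 1. The 109 Gene IDs with 0 counts in all libraries stayed among the 23773.

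Library totals were 5509264 and 4502582 counts at 5 dpf and 3660103 and 2787143 at 13 dpf. The Gene IDs described here held 90.1 to 92.2% of the counts at 5 dpf and 97 to 98.8% at 13 dpf. The 5328 that were not tested for want of counts held 0.168 to 0.263% of the described counts in these 4 libraries. On log2(CPM + 1), where CPM is counts scaled to 1000000 counts of the library's total times its TMM factor, Pearson's r across the 18445 tested Gene IDs was 0.984 between the libraries of 5 dpf, 0.97 between those of 13 dpf and 0.838 to 0.854 between the ages. Gene IDs are not independent replicates, and these values share the libraries' depth. The TMM factor, a scaling of edgeR that offsets differences in RNA composition, was 1.22 to 1.42 from 3 to 16 dpf and 0.387 to 0.656 at 17 and 24 dpf. Levels at 17 and 24 dpf are thus raised against the plain share of counts, and those of the other ages lowered.

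Roughly equal numbers of Gene IDs were higher and lower at 13 dpf, and the falls were larger than the rises. Among the 18445 tested, 9209 differed (49.9%). At 13 dpf 4414 were higher (23.9%) and 4795 were lower (26%) (edgeR's quasi-likelihood test, Benjamini-Hochberg adjusted p under 0.05). The median log2 fold change was 0.92 among those that rose and -1.11 among those that fell, against -0.02 over all tested Gene IDs. TMM scaling sets the bulk of Gene IDs near no change, so the near balance in numbers depends on it. At least 2-fold, 1941 rose and 2742 fell. At least 4-fold, 348 rose and 859 fell, 1207 in all (6.54% of those tested).

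The most extreme changes were mostly falls. At least 16-fold, 38 Gene IDs rose and 171 fell in the fit. These counts varied with the libraries and transcripts used. The falls numbered 274 without replicate 2 of 13 dpf, 317 with the left-out transcripts put back and 342 without a low-count filter. The rises numbered 29, 58 and 87 in the same order, 58 without replicate 1 of 13 dpf, and 24 with only the 4 libraries fitted. In each of these settings more Gene IDs fell than rose by 16-fold.

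In the Gene ID sums left by the rule, most changes were between measured levels rather than between presence and absence. The rule had already left out transcripts seen at 5 dpf alone or at 13 and 14 dpf alone, which favours this. The low-count filter, which removed Gene IDs with few counts before the test, favours it too. A sum can also hold a transcript that was absent at an age. Both libraries of 13 dpf held fewer counts than both of 5 dpf, so rises and falls were read at different depths. Of the 4414 that rose, 4055 (91.9%) had at least 10 counts in each library of 5 dpf, and 14 had 0 counts in both. Of the 4795 that fell, 3734 (77.9%) had at least 10 counts in each library of 13 dpf, and 38 had 0 in both. Over all 18445 tested, 15338 had at least 10 counts in each of the 4 libraries, so such levels were common in the tested set. The libraries of the ages did not overlap for 13904 of the tested Gene IDs (75.4%), and 4749 of these did not pass the test. Among those that passed, the ages did not overlap for 4365 of the rises and 4790 of the falls.

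**Figure D1:**
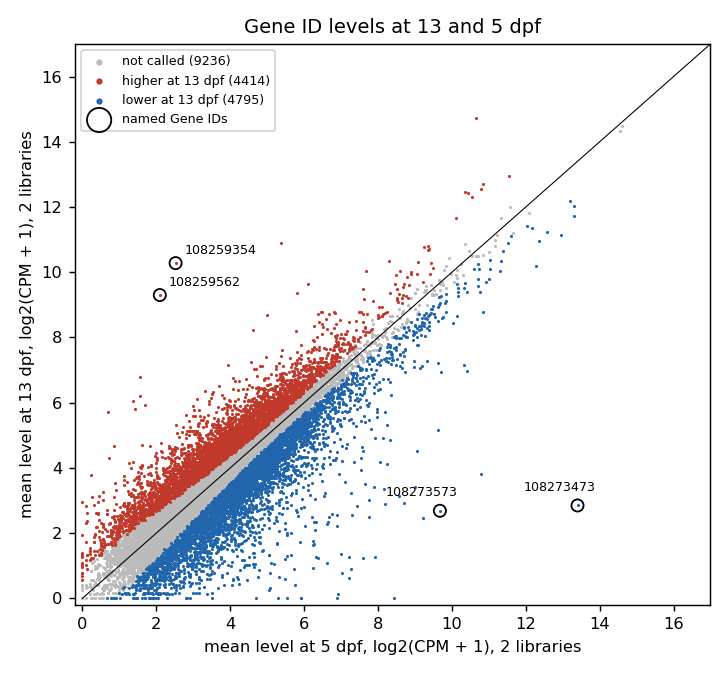
Mean level of each tested Gene ID at 5 dpf (horizontal) and 13 dpf (vertical), both as log2(CPM + 1) over 2 libraries; red points were higher and blue points lower at 13 dpf (adjusted p under 0.05), grey points were not called, and the line marks equal levels. The blue cloud reaches farther from the line than the red, with 859 falls and 348 rises of at least 4-fold.

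The direction of change differed with level. Tested Gene IDs were split by mean CPM over all 14 libraries into a low, a middle and a high level class of 6148 or 6149 each. In the low class, up to 7.62 CPM, 2265 (36.8%) changed and 38% of these rose. In the middle class, up to 21.4 CPM, 3198 (52%) changed and 44.6% of these rose. In the high class 3746 (60.9%) changed and 56.8% of these rose, so rises outnumbered falls in the high class alone. Other scalings, tests, filters, left-out libraries and rules for leaving out transcripts were also tried. Across these the share that rose was 34 to 39.8% in the low class and 54.6 to 57.5% in the high class. Among Gene IDs with a single transcript, taken alone, it was 42.2% in the low, 57% in the middle and 66.3% in the high class, so that rises also prevailed in the middle. Large changes went the other way, with 10.6% of the low class changed at least 4-fold, 5.07% of the middle and 3.94% of the high. Test power rises with counts, and its part in these differences was not tested.

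The changed Gene IDs carried much of the RNA counted. At 5 dpf those that rose held 16.7% ± 0.242 (SD, n = 2) of the tested counts, and at 13 dpf their share was 39.5% ± 0.717 (SD, n = 2). For those that fell the share was 44.6% ± 0.469 (SD, n = 2) at 5 dpf, and 21.2% ± 0.692 (SD, n = 2) remained at 13 dpf. Since these classes were defined by the same contrast, the shares are a description. Neither age was dominated by a few Gene IDs. The 20 highest held 19.6 to 20.3% of the tested counts in each of the 4 libraries, and 435 to 588 Gene IDs were needed to reach 50%. Of the 20 highest by mean CPM at each age, 12 were shared. Of the 20 highest at 5 dpf, 14 fell and 1 rose, and of the 20 highest at 13 dpf, 8 rose and 6 fell. Over all tested Gene IDs 26% fell and 23.9% rose, and in the high level class 60.9% changed. Choosing by level at 5 dpf favours falls and choosing at 13 dpf favours rises, so these counts are a description.

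Among the eligible Gene IDs the largest rise was that of 108259354, with 3.5 and 5.97 CPM (24 and 32 counts) at 5 dpf and 855 and 1629 CPM (4175 and 6278 counts) at 13 dpf. The named Gene IDs are the 2 largest rises and 2 largest falls among 3543 eligible rises and 3358 eligible falls, all with at least 10 counts in each of the 4 libraries. Its fitted log2 change was 8.06 ± 0.52 (SE; edgeR, adjusted p = 3.83e-12), about 267-fold. Its level was 2.24 and 3.43 CPM in the 3 dpf libraries, 54.3 and 55.2 in those of 14 dpf, 148 and 134 in those of 16 dpf, 579 and 489 in those of 17 dpf and 1683 and 364 in those of 24 dpf. Every library of 13 dpf and later lay above every library of 3 and 5 dpf, and both libraries of 14 dpf lay below both of 13 dpf. Without the TMM factor the libraries of 13 dpf had 1146 and 2312 CPM, those of 17 dpf 320 and 321 and those of 24 dpf 651 and 181, so that replicate 1 of 24 dpf, the highest with it, lay below both of 13 dpf. One of its 4 transcripts carried the rise, from 1 and 0 counts at 5 dpf to 4167 and 6268 at 13 dpf, so at 5 dpf the sum was mostly of the others.

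Gene ID 108259562 was at 3.36 and 3.17 CPM at 5 dpf (23 and 17 counts) and at 90.5 and 1169 CPM at 13 dpf (442 and 4504 counts). Both libraries of 13 dpf were above both of 5 dpf, but they differed widely from each other. The log2 change was 7.57 ± 0.74 (SE; edgeR, adjusted p = 6.74e-09), and it was 4.78 without replicate 2 of 13 dpf and 8.47 without replicate 1. At 14 dpf it was at 302 and 301 CPM, between the 2 libraries of 13 dpf. At 3 dpf it was at 2.88 and 2.06 CPM, and from 16 to 24 dpf it was at 4.06 to 7.3 CPM, so its high levels were those of 13 and 14 dpf. All its counts at 5 and 13 dpf came from 1 of its 2 transcripts.

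Among the eligible falls the largest was that of Gene ID 108273473, the third highest of all tested Gene IDs at 5 dpf. It had 9739 and 11895 CPM at 5 dpf (66720 and 63730 counts) and 5.12 and 7.27 CPM at 13 dpf (25 and 28 counts), a log2 change of -10.79 ± 0.34 (SE; edgeR, adjusted p = 1.57e-17). It was at 87.7 and 42.6 CPM at 3 dpf and at 6.43 to 20.3 CPM in the libraries of 14 to 24 dpf, far below both of 5 dpf. Of its 4 transcripts, 1 held 66661 and 63697 of the counts at 5 dpf and 11 and 15 at 13 dpf, while the others together had 59 and 33 at 5 dpf and 14 and 13 at 13 dpf.

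That leading transcript came close to the set seen at 5 dpf alone. Its counts at 3 dpf, 233 and 88, were 0.247% of its 5 dpf counts, and at each later age they were 0.013 to 0.023%. The left-out set, summed, had 975 and 364 counts at 3 dpf, or 0.161% of its 5 dpf counts, and 0.00515 to 0.00939% at each later age. In both, replicate 1 of 3 dpf had more counts than replicate 2. Each transcript of the left-out set was chosen to have fewer than 3 counts at every other age. The set's low shares there thus follow from the rule. A rule that also leaves out transcripts with under 1% of the age's counts at every other age, chosen after seeing these values, removed 143 more transcripts. The counts removed from replicates 1 and 2 of 5 dpf then rose to 10.4% and 13.1%. Under it the change of 108273473 was -1.27 on the log2 scale (edgeR, adjusted p = 0.00178), and the falls of at least 16-fold numbered 152.

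In 108273573 the libraries of 5 dpf had 762 and 871 CPM (5222 and 4669 counts), against 3.07 and 7.78 CPM at 13 dpf (15 and 30 counts). The log2 change was -7.28 ± 0.25 (SE; edgeR, adjusted p = 1.96e-17). It was -8.04 without replicate 2 of 13 dpf and -6.71 without replicate 1. At the next sampling, 14 dpf, it was 705 and 685 CPM, and the libraries of 16 dpf had 504 and 514. The 17 dpf libraries had 74.8 and 65.7 CPM, those of 24 dpf 25.7 and 22, and those of 3 dpf 52.2 and 54.2. On this scale the libraries of 13 dpf were the lowest of all 14, and those of 5, 14 and 16 dpf lay above every other. Without the TMM factor replicate 2 of 13 dpf, at 11.05 CPM, was no longer below those of 24 dpf, at 9.93 and 10.96 CPM.

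**Figure D2:**
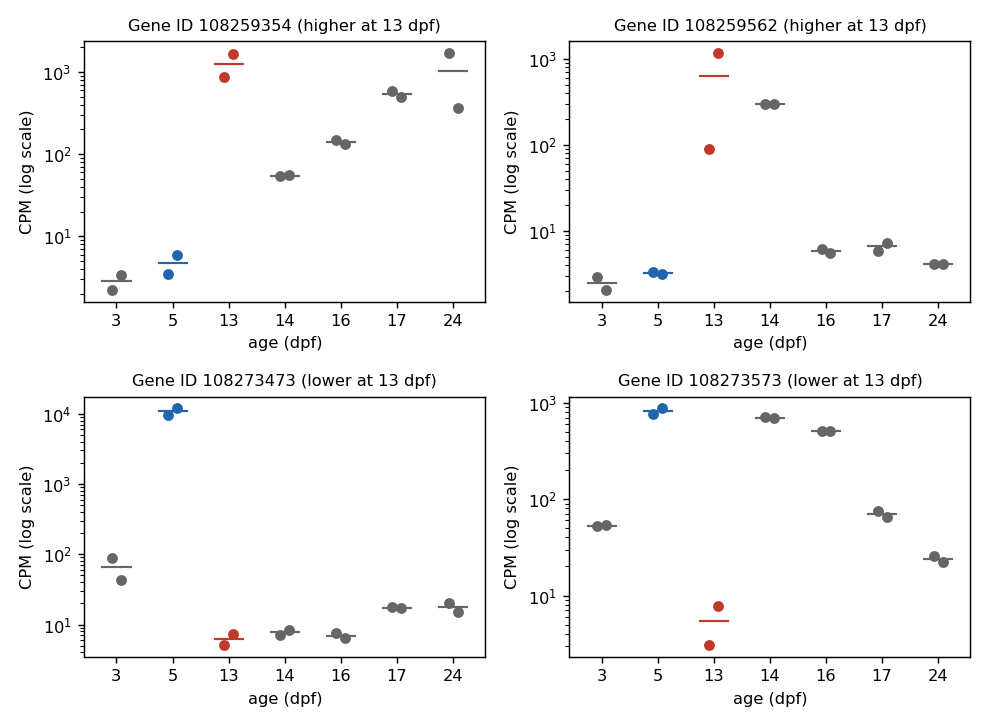
Level of each named Gene ID in every library (points) as CPM on a log axis, with the mean of the 2 libraries of an age as a line; 5 dpf is blue, 13 dpf red and other ages grey, and ages are evenly spaced. The 4 Gene IDs follow different courses after 13 dpf: 108273573, for example, is at 3.07 and 7.78 CPM at 13 dpf and at 705 and 685 CPM at 14 dpf.

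Levels at the ages outside the contrast are described here beside those of 13 and 5 dpf. The median level of the Gene IDs that rose was 13.4 and 13.3 CPM at 5 dpf and 25.7 and 24.6 at 13 dpf, which the contrast fixes. In the other libraries it was 16.6 to 21.6 CPM, between these. Choosing Gene IDs by their levels at 5 and 13 dpf favours such a place for the other ages, so it is a description. For those that fell the libraries of 5 dpf had medians of 19.1 and 19.6 CPM, against 8.19 and 8.56 at 13 dpf. The libraries of 3, 14 and 16 dpf had 13.6 to 14.4 CPM, those of 17 dpf 10.7 and 11, and those of 24 dpf 6.76 and 8.26. Over all tested Gene IDs it was 9.46 to 12.7 CPM, lowest at 24 dpf.

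Part of the contrast came from levels at 5 dpf that no other age shared, on the TMM scale, which alone was used for these counts. Both libraries of 5 dpf lay above the other 12 for 1555 of the 4795 falls (32.4%), against 1836 of all tested Gene IDs (9.95%). They lay below the other 12 for 948 of the 4414 rises (21.5%), against 1154 of all tested (6.26%). The libraries of 13 dpf lay above the other 12 for 747 of the rises (16.9%) and below them for 552 of the falls (11.5%). Over all tested Gene IDs these were 884 (4.79%) and 666 (3.61%). Both libraries of 13 dpf lay below both of 5 dpf for 7193 tested Gene IDs and above both for 6711. Only these could hold such levels, so the shares over all tested are lower by construction. The contrast chose the Gene IDs, so such shares are given as a description.

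**Figure D3:**
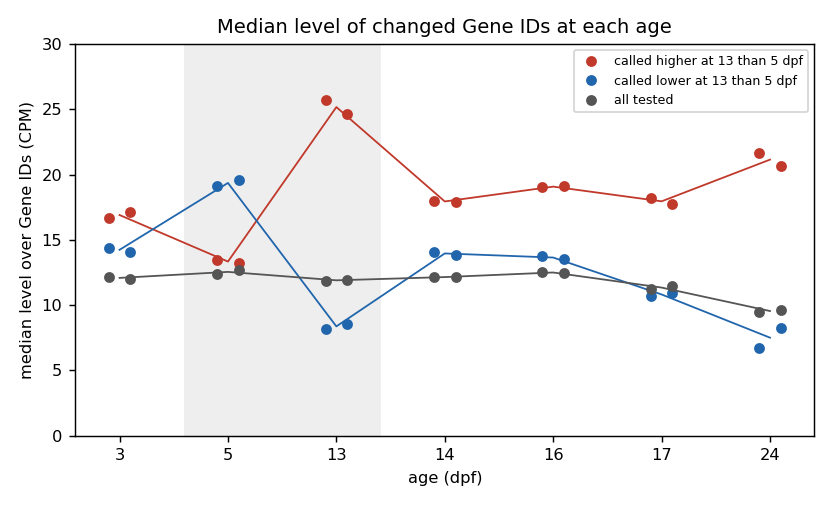
Median CPM over the 4414 Gene IDs called higher at 13 than 5 dpf (red), the 4795 called lower (blue) and all 18445 tested (grey), 1 point per library, with lines through the mean of each age; the shaded ages are those compared. Outside the shaded ages the red medians lie between 16.6 and 21.6 CPM, below those of 13 dpf and above those of 5 dpf, a place that choosing by these ages favours.

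A second contrast over a similar span, 14 against 3 dpf, shares no library with 13 against 5 dpf, although both come from a single fit. There 9901 of the 18445 Gene IDs differed (53.7%), with 4981 higher (27%) and 4920 lower (26.7%) in the 14 dpf libraries. Of the 4414 that rose from 5 to 13 dpf, 1503 (34.1%) were also higher at 14 than 3 dpf, 1157 (26.2%) were lower and 1754 were not called. Of the 4795 that fell, 1512 (31.5%) were also lower, 1134 (23.6%) were higher and 2149 were not called. The median log2 change from 3 to 14 dpf was 0.12 for the Gene IDs that rose from 5 to 13 dpf, -0.11 for those that fell and 0.02 over all tested. The shares moving the same way were thus 7.05 and 4.86 percentage points above those over all tested Gene IDs. Without the low-count filter these excesses were 12.3 and 8.55 points, and with single transcripts tested 9.36 and 8.30. The shares moving the same way were then 34.35 and 29.2% without the filter, and 34.2 and 32.8% with single transcripts. Those over all tested were lower than in the fit, at 22.1 and 20.7% without the filter and 24.9 and 24.5% with single transcripts. The larger excess for rises thus came mainly from lower shares over all tested. In the fit the shares moving the opposite way, 26.2% and 23.6%, were below the 26.7% and 27% over all tested Gene IDs. Without the low-count filter they were 25.4% and 23.4%, above the 20.7% and 22.1% over all tested. With single transcripts 24.8% of rises moved the opposite way, above 24.5% over all tested, and 23.5% of falls, below 24.9%. The order thus changed with the setting.

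Among the named Gene IDs, 108259354 and 108259562 were also higher at 14 than 3 dpf, by 4.27 and 6.91 on the log2 scale (edgeR, adjusted p = 3.58e-06 and 2.05e-07). Gene ID 108273473 was lower, at -3.06 (edgeR, adjusted p = 2.06e-09), and 108273573 was higher, at 3.71 (edgeR, adjusted p = 1.15e-13), against its fall from 5 to 13 dpf.

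**Figure D4:**
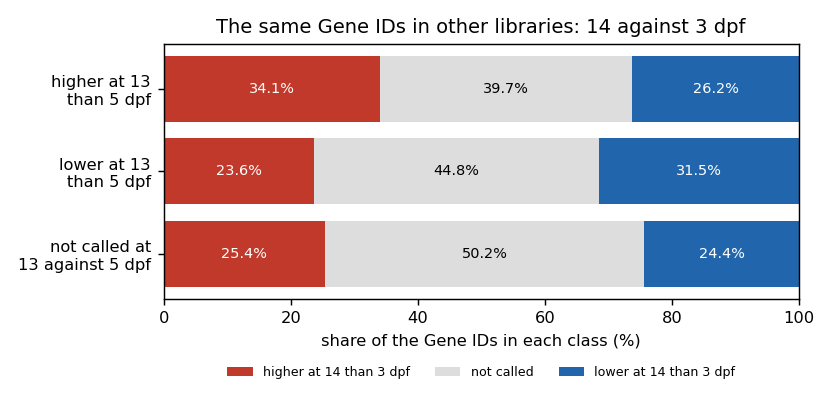
Share (%) of the Gene IDs called higher, lower or not called at 13 against 5 dpf that were higher (red), not called (grey) or lower (blue) at 14 against 3 dpf, which uses other libraries. Red makes up 34.1% of the first bar, 23.6% of the second and 25.4% of the third.

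The libraries of 13 dpf differed from each other more than those of 5 dpf. Among the 15338 Gene IDs with at least 10 counts in each of the 4 libraries, 428 (2.79%) were over 2-fold apart at 13 dpf and 100 (0.652%) at 5 dpf. With 10 counts also required at the age itself, the share was 0.131 to 4.82% at the other ages, lowest at 16 and highest at 24 dpf. Both libraries of 13 dpf held fewer counts than both of 5 dpf, and the part of depth in these shares was not tested. Of the 428, 246 were higher in replicate 2 and 182 in replicate 1. The 246 had a median of 3.68 and 9.34 CPM in replicates 1 and 2 of 13 dpf, against 8.54 and 8.59 in those of 5 dpf and 9.93 and 10 in those of 14 dpf. The 182 had 17.2 and 6.75 CPM in the libraries of 13 dpf, 8.47 and 10.3 in those of 5 dpf and 8.73 and 8.04 in those of 14 dpf. In both groups the median of replicate 2 lay nearer than that of replicate 1 to the medians of 5, 14, 16 and 17 dpf. This nearness was thus not particular to 14 dpf. For 3 and 24 dpf it held in the group of 182 alone. Replicate 2 also had the larger share of counts in the transcripts seen at 13 and 14 dpf alone. Gene IDs over 2-fold apart at 13 dpf made up 2.69% of the rises, 2.7% of the falls and 2.89% of those not called, counted among those with 10 counts in each library.

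A Gene ID often covered several transcripts, with a median of 4 kept and as many as 1912. The share called rose with that number, from 988 of 2258 (43.8%) with 1 transcript kept to 3156 of 6555 (48.1%) with 2 to 4, 2966 of 5787 (51.3%) with 5 to 9 and 2099 of 3845 (54.6%) with 10 or more. The median absolute log2 change fell in the same order, from 0.73 to 0.65, 0.56 and 0.49, while median CPM rose from 4.96 to 8.8, 15.9 and 35.5. The part of level in this was not tested. By their names, the transcripts of each named Gene ID came from more than 1 cluster of the assembly. Whether the transcripts under a Gene ID are forms of a single gene was not tested.

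Transcripts under a Gene ID did not always move together. Tested singly, 14323 of 37098 transcripts changed (38.6%), and 7593 Gene IDs had at least 2 transcripts tested. In 2236 of these the transcripts that changed all rose, in 2186 they all fell, in 2641 none changed, and in 530 (6.98%) some rose and some fell. Of the 2642 Gene IDs with at least 2 changed transcripts, those 530 made up 20.1%. Their sums were higher at 13 dpf in 89, lower in 213 and not called in 228. Over all tested Gene IDs 23.9% were higher and 26% lower. For 141 Gene IDs, transcripts changed at least 4-fold in both directions. The sum moved by less than 2-fold in 77 of these, so that it hid larger opposite changes. Reads of near-identical copies may be divided among transcripts in the estimated counts, and that part was not tested.

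The leading transcript of a Gene ID was mostly the same at both ages. Among 7761 Gene IDs with at least 2 transcripts and 50 counts in each of the 4 libraries, the transcript with most counts differed between the libraries of 5 dpf in 437 (5.63%) and between those of 13 dpf in 495 (6.38%). Between a library of 5 and one of 13 dpf it differed in 8.54 to 9.75%. In 270 Gene IDs (3.48%) it was the same within each age and different between the ages. The sums of 162 of these (60%) were called, against 55.3% of the 7761.

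Gene IDs that lost transcripts to the rule fell more often in what remained. Of the 4115 tested Gene IDs that lost a transcript seen at 5 dpf alone, 1398 (34%) were lower and 859 (20.9%) higher at 13 dpf, with a median log2 change of -0.15. Of the 583 that lost a transcript seen at 13 and 14 dpf alone, 256 (43.9%) were lower and 117 (20.1%) higher, with a median of -0.29. Among the 14146 that lost none, 3336 (23.6%) were lower and 3505 (24.8%) higher, with a median of 0.03. The transcripts left out had made up a median of 17.9% and 22.5% of their tested Gene IDs' counts in replicates 1 and 2 of 5 dpf. Those of 13 and 14 dpf alone had made up 1.75% and 15.3% in replicates 1 and 2 of 13 dpf. Leaving out this second set by itself lowers the sums at 13 dpf and hardly those at 5 dpf, which favours falls. Leaving out the set of 5 dpf alone lowers the sums at 5 dpf instead. The part of the rule in the shares above was not tested. With all transcripts put back, 4654 Gene IDs were higher and 5280 lower. Of the 9209 calls, 8449 were also called then, and 60 of these had the opposite direction.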

How the data were processed

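RNA of whole fry was depleted of ribosomal RNA and sequenced, per the labels' protocols. The deposited values are expected counts per assembled transcript, and their column totals differ between libraries. Tools listed in the submitters' processing notes, with no role, are RSEM, Trimmomatic 0.36, DESeq2, FastQC and CASAVA 1.9.1. For build, strand use and filters, nothing is given in the sources used here.

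Expected counts were summed per Gene ID, rounded and tested across all Gene IDs with edgeR 4.0.16 in R 4.3.3 (TMM scaling, filterByExpr with a minimum count of 10, quasi-likelihood F test, age as the only term, all 14 libraries). CPM were computed on library sizes times the TMM factors, which were 1.32 to 1.42 at 5 and 13 dpf. Benjamini-Hochberg adjustment covered all tested Gene IDs, including 87 that mix letters and digits and are not described in the report. The fit was checked on simulated counts in which few Gene IDs changed. That check cannot show how scaling and calling behave where as many change as here. SEs were derived from the F statistic and fold change.

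Named Gene IDs are the 2 largest rises and 2 largest falls whose adjusted p was under 0.05, whose ages did not overlap, and which had at least 10 CPM at the higher age and 10 counts in each of the 4 libraries. Members and lists were chosen with earlier results of these data known. Alternatives were DESeq2 1.42.0 size factors and Wald test, upper-quartile scaling, limma-voom, other filters, the replicate block, left-out libraries and other rules for transcripts.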

Additional observations from a re-analysis of the deposited data

How the results depend on the processing

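Of 104 alternative counts, 90 stayed within 1.5 times the reported count. The other 14 follow from fewer or more units tested or from a fold limit. With transcripts in place of Gene ID sums, 14323 changed from 5 to 13 dpf, 6758 higher and 7565 lower, 3442 of them at least 4-fold, and 18297 changed from 3 to 14 dpf. With only Gene IDs of a single transcript these were 965, 470, 495, 267 and 1066. With a fold limit of 2, 4683 changed from 5 to 13 dpf, 1941 higher and 2742 lower, and 5819 changed from 3 to 14 dpf. Leaving out each library of 5 and 13 dpf gave 7402 to 8234 changed, 3404 to 3952 higher, 3993 to 4282 lower and 1200 to 1458 at least 4-fold, and 9798 to 10311 for 14 against 3 dpf. All 72 alternative values of the named Gene IDs kept their direction, but not all kept their size. Leaving out transcripts with under 1% of the age's counts at every other age took the log2 change of 108273473 from -10.79 to -1.27. Without replicate 2 of 13 dpf, that of 108259562 went from 7.57 to 4.78. Other scalings shifted the median log2 change by -0.02, and putting the left-out transcripts back by 0.10. The share of rises also higher at 14 than 3 dpf was 31.7 to 37.4% over all settings, and that of rises lower there 20.6 to 29.8%. The share of falls also lower was 27.3 to 35.9%. Above the shares over all tested, rises also higher stood by 5.57 to 12.3 points and falls also lower by 4.46 to 8.55. Both maxima came without the low-count filter, where the shares over all tested were lower, at 22.1 and 20.7%. No pairing by replicate number was seen across the tested Gene IDs, with correlations of same-numbered deviations of -0.07 to 0.05 over 21 pairs of ages. A pairing that acts on few Gene IDs would not show in these correlations. With the replicate block 9011 changed, 4313 higher and 4698 lower, 1201 at least 4-fold, and 9733 for 14 against 3 dpf. The 3 other rules for leaving out transcripts were chosen after seeing the data. In the low level class 36.8% of Gene IDs were called, and the part of depth in this was not tested.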

Other observations

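Of the 1401 Gene IDs that mix letters and digits, 87 were tested. Among these, 43 (49.4%) changed from 5 to 13 dpf, 19 higher and 24 lower at 13 dpf, with a median log2 change of 0.26 (edgeR, adjusted p under 0.05). The transcripts of the 1401 that the rule kept together held 0.439 and 0.453% of the counts in replicates 1 and 2 of 5 dpf and 0.927 and 0.656% in those of 13 dpf.

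The Gene IDs that rose from 5 to 13 dpf did not keep a constant share of the tested counts at the other ages. The 3 dpf libraries had 27.5 and 28.7%, those of 14 dpf 21.2 and 21%, both of 16 dpf 24.1%, those of 17 dpf 45.5 and 47.7% and those of 24 dpf 33.9 and 39.8%. Those that fell held 32.1 and 31.5%, 34.1 and 34.3%, 34.5 and 34.7%, 24.8 and 23.3%, and 30.5 and 24% at these ages. The highest Gene ID of each library held 30.8 and 33% of the tested counts at 17 dpf and 18.7 and 21.4% at 24 dpf, and its part in those shares was not tested.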
